A study of Saccharomyces cerevisiae with 6 samples.

Results

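The genes described here are 33 genes of budding yeast (Saccharomyces cerevisiae) that act when a cell commits to a new division and starts to copy its DNA, a step called G1/S. They were chosen by name, with earlier results of these data known. They are the G1 cyclins, the transcription factors SBF and MBF with their regulators, and targets of these factors. The targets are genes of DNA replication, sister chromatid cohesion and the growing cell wall. Each of the 33 had exactly 1 probe set (a group of short probes on an Affymetrix array that measures 1 transcript), out of 5449 named genes measured. All 33 lay above background on all 6 arrays, where background is the 98th percentile of the probe sets of another species on the same array.

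Wild-type cells in mid-log phase were grown for 3 h either with the solvent DMSO alone, at 0.1%, or with 0.1 µM of the compound that the labels call OGT2468. No DMSO content is given for the OGT2468 cultures, so a difference in solvent cannot be told apart from the compound. Each group had 3 cultures, described as biological samples, with 1 array per culture. The labels name neither the strain background nor the mating type, and they mention no synchronisation or sorting by cell cycle stage.

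A yeast cell passes from G1 into S phase at a control point named Start. The cyclin Cln3 with the kinase Cdc28 relieves the repressor Whi5, and SBF (Swi4 with Swi6) and MBF (Mbp1 with Swi6) then switch on a large wave of genes. SBF is best known for genes of budding and cell wall growth and for the cyclins CLN1 and CLN2, and MBF for genes of DNA synthesis. SBF also receives a signal from Slt2, the kinase of the cell wall integrity pathway. The comparison of OGT2468 with DMSO asked whether the transcripts of this program differed after 3 h in the compound.

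Among the 33 genes 3 were higher in OGT2468 at a limma adjusted p under 0.05 and 0 were lower, with 10 higher and 2 lower at an unadjusted p under 0.05. The 3 were SRL3, a relative of the repressor WHI5, which rose 2.97-fold, YOX1, a repressor gene, which rose 1.63-fold, and SVS1, a gene of a cell wall protein, which rose 1.37-fold. The G1 cyclins, SWI4, SWI6 and MBP1, the S phase cyclins and the 11 genes of the replication machinery did not pass. The share called higher was 9.09% of the members, beside 2.72% of the 5449 named genes and 1.83% of all tested probe sets. For lower calls the shares were 0% of the members, 1.1% of the named genes and 0.758% of all tested probe sets. At an unadjusted p under 0.05, 10.9% of the named genes were higher and 10.1% lower. The members were chosen with earlier results of these data known, so these shares are not an independent test. In a mixed population more cells at a given stage and more RNA per cell at that stage cannot be told apart.

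All values below are log2(intensity + 16) after the 6 arrays were brought to a common distribution, and a change is OGT2468 minus DMSO on that scale. The array number of 3 per group limits the precision, and p-values are from limma, adjusted by the Benjamini-Hochberg method over 8968 probe sets. Before this step the named probe sets had a median intensity between 786 and 1150 in DMSO and between 691 and 842 in OGT2468.

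**Figure D1:**
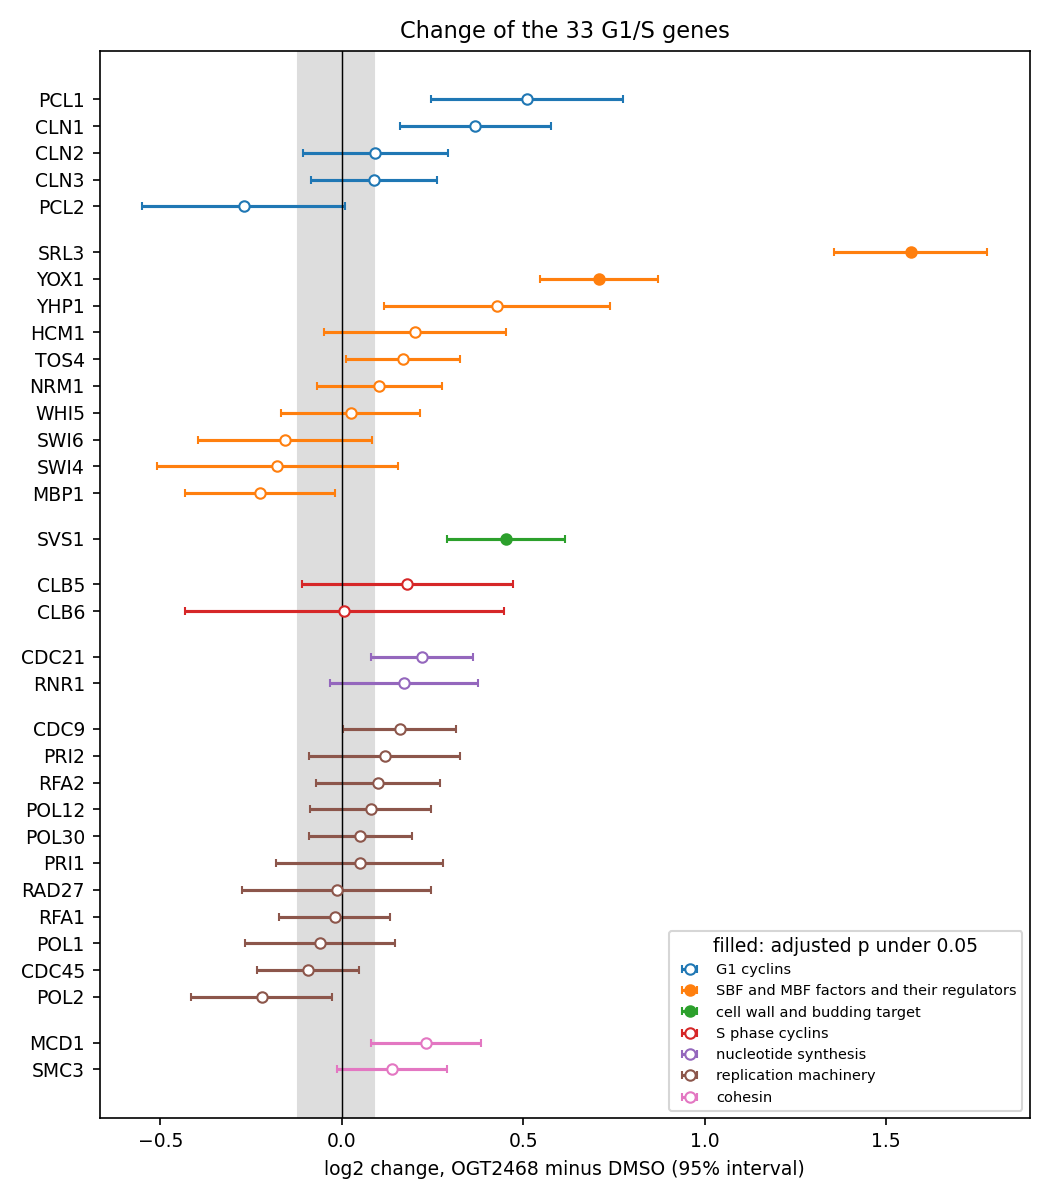
Log2 change between OGT2468 and DMSO for each of the 33 G1/S genes, ordered by role, with 95% intervals from limma (3 arrays per group); filled symbols have an adjusted p under 0.05, and the grey band holds the range between the quartiles of all named genes, from -0.12 to 0.09. SRL3, YOX1 and SVS1 are the filled symbols, and the replication genes lie between -0.22 and 0.16.

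SRL3 (YKR091W), also called WHI7, encodes a protein related to Whi5 that likewise restrains Start. SRL3 stood at 8.58, 8.83 and 8.81 in DMSO and at 10.27, 10.29 and 10.37 in OGT2468. The 3 treated arrays were all far above the controls, with a gap between the groups much wider than the spread within either. The change was 1.57 ± 0.09 (SE, n = 3 per group), with an adjusted p of 0.00161 in limma and a 95% interval of 1.36 to 1.78. It ranked 8 among the 5449 named genes by size of rise. In the intensities as deposited, with nothing scaled, its values were 383, 395 and 586 in DMSO and 1226, 1088 and 1050 in OGT2468, so the groups were apart there too. The call held in all 15 alternative analyses, with a change between 1.30 and 1.61.

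YOX1 (YML027W) encodes a homeodomain repressor that acts with Mcm1 to shut off genes of the M/G1 interval, among them SWI4 and CLN3. It stood at 9.78, 9.84 and 9.81 in DMSO and at 10.50, 10.44 and 10.61 in OGT2468. The controls were within 0.1 of each other and every treated array was above them. The change was 0.71 ± 0.07 (SE, n = 3 per group; limma adjusted p = 0.00613). With no scaling between arrays it was 0.42 (adjusted p = 0.337) and with scaling on the hybridization controls 0.43 (adjusted p = 0.104), while the median over the named genes was -0.02 as reported and -0.27 and -0.26 in these settings. Relative to that median the change of YOX1 was 0.69 and 0.70, beside 0.73 as reported. With the replicate number as a block the call was lost as well (limma adjusted p = 0.0748).

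YHP1 (YDR451C), the paralog of YOX1 with a related repressor role, gave a change in the same direction that did not pass. Its level was 9.24, 9.36 and 9.52 in DMSO and 9.57, 9.89 and 9.95 in OGT2468. The lowest treated array was just above the highest control. The change was 0.43 ± 0.13 (SE, n = 3 per group; limma adjusted p = 0.170), with a 95% interval of 0.12 to 0.74.

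SVS1 (YPL163C) encodes a serine- and threonine-rich cell wall protein and is a target of SBF. It stood at 11.92, 11.95 and 11.94 in DMSO and at 12.39, 12.31 and 12.48 in OGT2468. The controls were tightly grouped and the treated arrays lay above them. The change was 0.45 ± 0.07 (SE, n = 3 per group; limma adjusted p = 0.0285). The call of SVS1 held in 3 of the 15 alternatives. It was lost without any 1 of the 6 arrays (adjusted p between 0.0560 and 0.117), with no scaling (0.540) and with control scaling (0.330). Upper quartile scaling (0.0674), median scaling (0.131), a pseudocount of 1 (0.0514) and the replicate number as a block (0.125) also ended it. In the deposited intensities the groups overlapped, at 3917 to 4760 in DMSO and 4434 to 5605 in OGT2468.

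**Figure D2:**
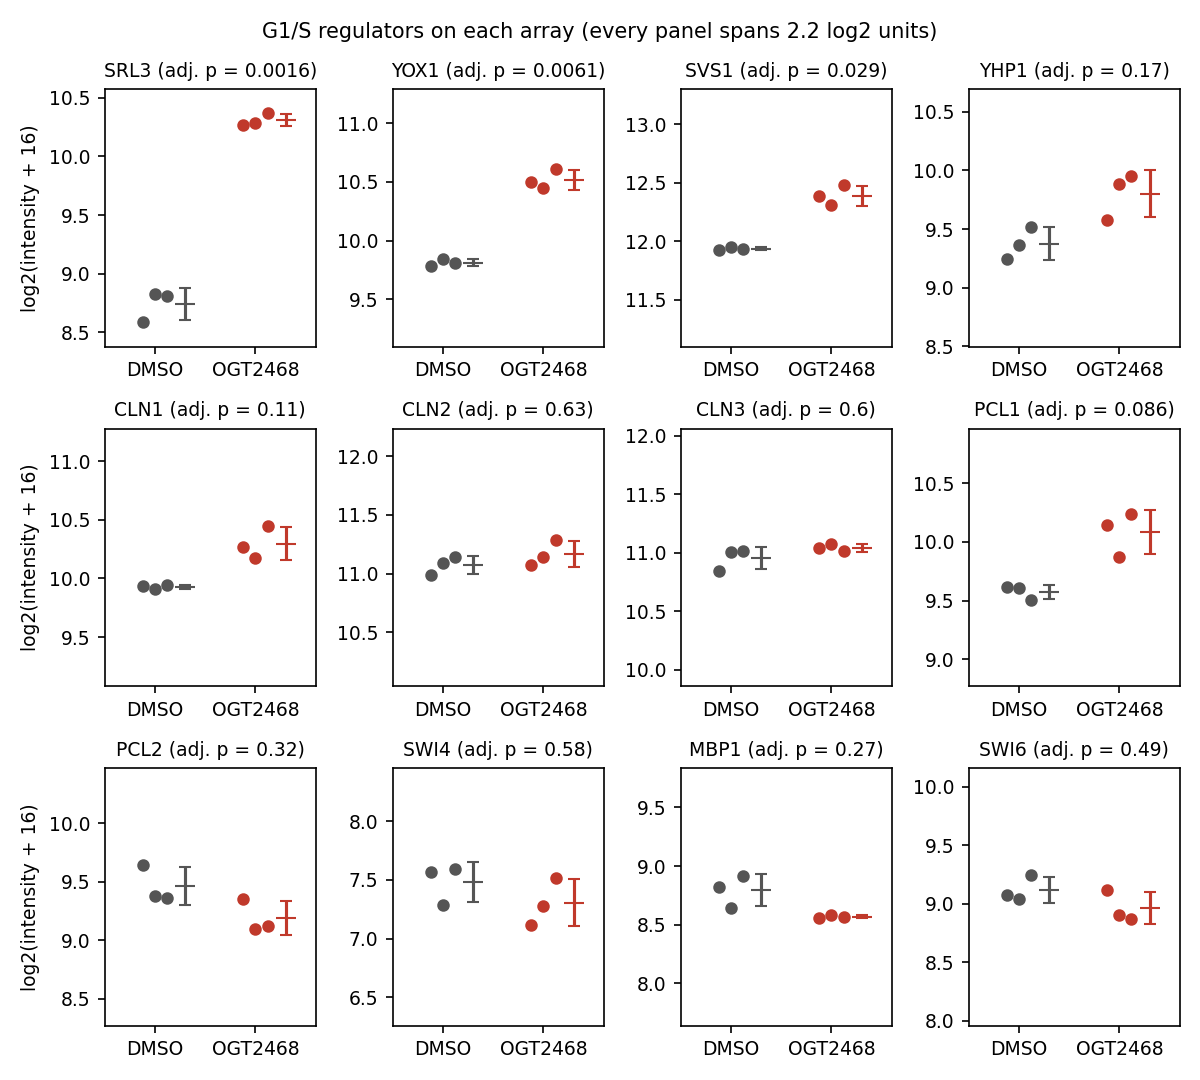
Level of 12 G1/S regulators and targets as log2(intensity + 16) on each of the 6 arrays (points, replicates 1 to 3 from left to right), with the mean and SD of each group of 3 beside them; every panel spans the same range of the scale, with its limma adjusted p above it. The SRL3 groups are the furthest apart of the 12, and those of CLN2, CLN3, SWI4 and SWI6 overlap.

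None of the 5 G1 cyclin genes passed, with 2 of them, PCL1 and CLN1, higher and 0 lower at an unadjusted p under 0.05. Of all named genes 10.9% were higher and 10.1% lower at that threshold. PCL1 (YNL289W) encodes a cyclin of the kinase Pho85 that acts in G1 alongside Cln1 and Cln2. It stood at 9.61, 9.60 and 9.50 in DMSO and at 10.14, 9.87 and 10.24 in OGT2468. Every treated array was above the controls, but the treated arrays were spread more widely. The change of PCL1 was 0.51 ± 0.11 (SE, n = 3 per group; limma adjusted p = 0.0860). Without OGT2468 replicate 2, the lowest of the treated arrays, it was 0.62 (adjusted p = 0.0423). PCL1 passed in 1 of the 6 analyses without 1 array and in 4 of all 15 alternatives. With no scaling the change was 0.24 (adjusted p = 0.492) and with control scaling 0.25 (adjusted p = 0.265). With the replicate number as a block the adjusted p was 0.1955. In the deposited intensities the groups overlapped, at 703.8 to 941.3 in DMSO and 816.1 to 1110.6 in OGT2468.

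CLN1 (YMR199W), which encodes a G1 cyclin of Cdc28, stood at 9.93, 9.91 and 9.94 in DMSO and at 10.27, 10.17 and 10.45 in OGT2468. The groups did not overlap, and the treated arrays again varied more than the controls. Its change was 0.37 ± 0.09 (SE, n = 3 per group; limma adjusted p = 0.105). CLN2 (YPL256C), its paralog, stood at 10.99, 11.09 and 11.14 in DMSO and at 11.07, 11.14 and 11.29 in OGT2468, with overlapping groups. The change of CLN2 was 0.09, with a 95% interval of -0.11 to 0.29, and the difference between the paralogs was not tested.

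CLN3 (YAL040C), the cyclin that acts first at Start, stood at 10.84, 11.00 and 11.01 in DMSO and at 11.04, 11.08 and 11.01 in OGT2468. The groups overlapped, and the change was 0.09 with a 95% interval of -0.08 to 0.26. PCL2 (YDL127W), a second Pho85 cyclin of this stage, stood at 9.65, 9.38 and 9.36 in DMSO and at 9.36, 9.10 and 9.12 in OGT2468. The highest treated array was just below the lowest control, and replicate 1 was the highest of each group. The change of PCL2 was -0.27 ± 0.11 (SE, n = 3 per group; limma adjusted p = 0.320), so the related pair PCL1 and PCL2 gave values of opposite sign, neither of which passed.

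The genes of the factors themselves had values below 0. SWI4 (YER111C), the DNA-binding subunit of SBF, stood at 7.57, 7.29 and 7.59 in DMSO and at 7.12, 7.28 and 7.52 in OGT2468, with overlapping groups. Its change was -0.18, with a 95% interval of -0.51 to 0.15. MBP1 (YDL056W), the DNA-binding subunit of MBF, stood at 8.82, 8.64 and 8.92 in DMSO and at 8.56, 8.59 and 8.56 in OGT2468. All 3 treated arrays were below the lowest control, and the change was -0.23 ± 0.08 (SE, n = 3 per group; limma adjusted p = 0.270). SWI6 (YLR182W), the subunit that SBF and MBF share, stood at 9.08, 9.04 and 9.25 in DMSO and at 9.12, 8.90 and 8.87 in OGT2468, and its change was -0.16 (limma adjusted p = 0.494).

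The remaining regulators gave small values that did not pass. WHI5, the repressor of SBF, had a change of 0.02 with a 95% interval of -0.17 to 0.22, beside the 1.57 of its relative SRL3. NRM1, the co-repressor of MBF that is itself an MBF target, had a change of 0.10. TOS4, a forkhead-associated protein that is an SBF and MBF target, had 0.17, and HCM1, a forkhead factor of S phase genes, had 0.20. The treated and control arrays did not overlap for TOS4 and HCM1 and overlapped for WHI5 and NRM1.

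CLB5 and CLB6 encode the B-type cyclins that start DNA synthesis, and both are MBF targets. CLB5 had a change of 0.18 ± 0.12 (SE, n = 3 per group) and CLB6 a change of 0.01 ± 0.18 (SE, n = 3 per group), and the groups of both overlapped. CLB6 varied most of all 33 members within a group, at 9.77, 9.30 and 9.08 in DMSO (SD 0.35), against 9.47, 9.32 and 9.37 in OGT2468. Its interval of -0.43 to 0.45 was the widest of the members.

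For nucleotide synthesis, RNR1, the large subunit of ribonucleotide reductase, had a change of 0.17 (limma adjusted p = 0.379), and CDC21, the thymidylate synthase, had a change of 0.22 ± 0.06 (SE, n = 3 per group; limma adjusted p = 0.133). In neither gene did the groups overlap. CDC21 stood at 9.89, 9.83 and 9.84 in DMSO and at 10.11, 10.04 and 10.07 in OGT2468.

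None of the 11 genes of the replication machinery passed. At an unadjusted p under 0.05, 1 was higher and 1 lower, beside 10.9% and 10.1% of the named genes. The changes of the 11 genes lay between -0.22 and 0.16, with a median of 0.05. Their 95% intervals lay between -0.42 and 0.33, so that none included a 2-fold change. The gene with the lowest value was POL2, the catalytic subunit of DNA polymerase epsilon, at -0.22. POL1 (-0.06) and POL12 (0.08), subunits of DNA polymerase alpha, and PRI1 (0.05) and PRI2 (0.12), the primase subunits that work with them, had overlapping groups. At the fork, the sliding clamp gene POL30 had a change of 0.05, the single-strand binding protein genes RFA1 and RFA2 had -0.02 and 0.10, and the helicase cofactor gene CDC45 had -0.09. For the joining of Okazaki fragments, the ligase gene CDC9 had 0.16 and the flap nuclease gene RAD27 had -0.01. The mean level over the 11 genes was 10.10 to 10.17 on the DMSO arrays and 10.12 to 10.17 on the OGT2468 arrays.

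The cohesin genes, whose products hold sister chromatids together from S phase on, gave values above 0 without passing. MCD1, the subunit that is cleaved at anaphase, had a change of 0.23 ± 0.06 (SE, n = 3 per group; limma adjusted p = 0.139), and SMC3 had 0.14 (limma adjusted p = 0.346). In both the treated arrays lay above all controls.

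Across the 33 members the groups did not overlap, with OGT2468 higher, in 14 genes (42.4%), beside 15.5% of the named genes and 12% of all tested probe sets. They did not overlap, with OGT2468 lower, in 4 genes (12.1%), beside 16.4% of the named genes and 12.1% of all tested probe sets. At an unadjusted p under 0.05 the higher members were 30.3%, beside 10.9% of the named genes, and the lower ones 6.06%, beside 10.1%. Because the members were chosen with earlier results of these data known, these shares are not an independent test of an excess. The change was above 0 in 24 of 33 members, against 45.2% of the named genes, and the median change was 0.10, against -0.02. With no scaling between arrays 6 of the 33 changes were above 0, and with scaling on the hybridization controls also 6, while relative to the median of all named genes 24 were above it in both settings. Over the 30 members that did not pass, the mean level was 9.80 to 9.87 on the DMSO arrays and 9.89 to 9.95 on the OGT2468 arrays.

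The number of members called depended on which probe sets were tested with them, on the pseudocount and on the scaling. The 3470 unnamed probe sets, whose species the annotation does not give, had a median intensity of 4.8 to 6.3 on the arrays. Of them 7.87% to 9.02% were above background. With the named probe sets alone, 7 members passed, and with a filter on dim probe sets also 7. In each case these were SRL3, YOX1, SVS1, PCL1, CLN1, CDC21 and MCD1, all higher, and the named genes called higher were 5.96% and 6.27%. With a pseudocount of 64 in place of 16 the members called were SRL3, YOX1, SVS1, PCL1 and CLN1, beside 5.01% of the named genes. With no scaling and with scaling on the hybridization controls SRL3 alone passed, beside 0.312% and 0.624% of the named genes.

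**Figure D3:**
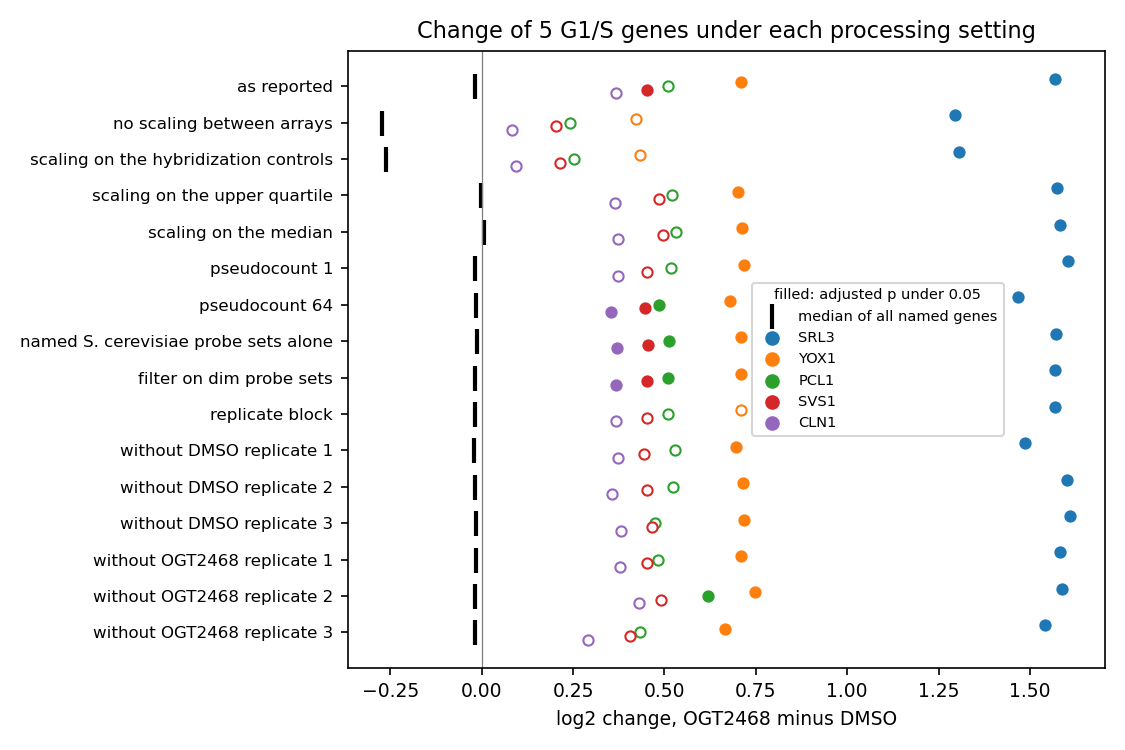
Log2 change of SRL3, YOX1, PCL1, SVS1 and CLN1 under the reported setting and 15 alternatives, with the median change of all named genes as a black bar; filled symbols have a limma adjusted p under 0.05. SRL3 is filled in every line, and the median bar moves left together with the 5 genes when arrays are left unscaled or are scaled on the controls.

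Other genes of the same program and of later cell cycle stages were read from lists written out by name, of which 126 of 127 genes were measured. Among 22 measured late G1 targets outside the 33, 1 was higher and 0 were lower, beside 2.72% and 1.1% of the named genes. This was TOS3 (YGL179C), a kinase that activates Snf1 and whose gene was named as a target of SBF. It stood at 7.66, 7.63 and 7.70 in DMSO and at 8.67, 9.03 and 8.78 in OGT2468. The controls were within 0.1 of each other and the treated arrays were all higher, with a change of 1.16 ± 0.10 (SE, n = 3 per group; limma adjusted p = 0.00531), or 2.24-fold. The median change of the list was 0.04. At an unadjusted p under 0.05, 6 of the 22 were higher and 1 lower, beside 10.9% and 10.1% of the named genes. The list was written with earlier results of these data known, so these counts are not an independent test. With no scaling the adjusted p of TOS3 was 0.0558, at a change of 0.91. With the replicate number as a block the adjusted p was 0.0674, so the call was lost in both settings.

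Of 15 measured genes of the G1 kinase and its regulators, 1 fell and 0 rose, beside 1.1% and 2.72% of the named genes. FAR1 (YJL157C) encodes the inhibitor that holds Cln-Cdc28 in check when a cell meets mating pheromone. It stood at 11.42, 11.49 and 11.55 in DMSO and at 10.82, 10.92 and 11.06 in OGT2468. All treated arrays were below the controls, and the change was -0.55 ± 0.08 (SE, n = 3 per group; limma adjusted p = 0.0317), a level 1.47-fold lower. The call was lost without any 1 array (adjusted p between 0.0538 and 0.116), with median scaling (0.0532) and with a pseudocount of 1 (0.0630). It was also lost with the replicate number as a block (0.0835). The kinase gene CDC28 had a change of 0.29 (adjusted p = 0.0956) and its partner CKS1 one of 0.27 (adjusted p = 0.0954), neither of which passed and both of which were named after their values were seen. At an unadjusted p under 0.05, 4 of the 15 genes were higher and 2 lower, beside 10.9% and 10.1% of the named genes.

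Markers of mating type were read beside FAR1. Of all named genes 1.1% were called lower. Of 5 a-cell markers 3 fell, STE2 (-1.09), MFA2 (-1.06) and STE6 (-0.61), and the summed deposited intensity of all 5 was 760 to 1004 on the DMSO arrays and 315 to 375 on the OGT2468 arrays. MFA1 (-0.28) and BAR1 (-0.03) did not pass, and they were above background on 5 and 4 of the 6 arrays. Of 4 alpha-cell markers 1 fell, MF(ALPHA)2 (-0.35, limma adjusted p = 0.0494). SAG1 (-0.49, limma adjusted p = 0.0663), STE3 (-0.29) and MF(ALPHA)1 (-0.08) did not pass. In all 4 the treated arrays lay below all controls, beside 16.4% of the named genes. At an unadjusted p under 0.05, 3 of the 4 were lower, beside 10.1% of the named genes. All 4 were above background on every array, with a summed intensity of 37417 to 41927 in DMSO and 25047 to 31386 in OGT2468. Of 4 haploid markers (HO, RME1, STE5 and GPA1) 0 passed, with 0 also at an unadjusted p under 0.05. Their summed intensity was 8671 to 10213 in DMSO and 6119 to 8155 in OGT2468. After the arrays were brought to a common distribution their median change was -0.007, and the groups of all 4 overlapped. The sums of all marker sets are of unscaled intensities. On the same arrays the named probe sets had a median intensity of 786 to 1150 in DMSO and 691 to 842 in OGT2468. No marker was at 0 on any array, and the part of these markers in the change of FAR1 was not tested.

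The lists of DNA synthesis were close to the median of all genes. Of 12 measured genes of nucleotide supply 1 rose and 0 fell, beside 2.72% and 1.1% of the named genes. This was DFR1 (YOR236W), the dihydrofolate reductase that restores the folate used by the thymidylate synthase Cdc21. DFR1 stood at 10.22, 10.28 and 10.24 in DMSO and at 10.76, 10.69 and 10.76 in OGT2468. The groups were well apart on this scale, with a change of 0.49 ± 0.06 (SE, n = 3 per group; limma adjusted p = 0.0124). In the deposited intensities they overlapped, at 1143.5 to 1580.9 in DMSO and 1383.6 to 1737.5 in OGT2468. The call of DFR1 was lost with no scaling (0.21, adjusted p = 0.541) and with control scaling (0.22, adjusted p = 0.279). The call was also lost with the replicate number as a block and in 4 of the 6 analyses without 1 array. It held when DMSO replicate 2 or OGT2468 replicate 2 was removed. At an unadjusted p under 0.05, 1 of the 12 genes was higher and 1 lower, beside 10.9% and 10.1% of the named genes.

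In origin licensing, the loading of the Mcm helicase at origins in G1, 0 of 15 measured genes passed, with 1 higher and 2 lower at an unadjusted p under 0.05. The members with the lowest p were ORC6 (-0.28), ORC5 (-0.35) and CDC6 (0.21). Among 28 measured genes of replication initiation and the fork outside the 33, 0 passed, with 2 higher and 3 lower at an unadjusted p under 0.05, and the first by p were DPB11 (0.19), DPB2 (0.22) and CDC7 (-0.21). Among 11 measured genes of sister chromatid cohesion 0 passed, with 0 also at an unadjusted p under 0.05, led by SCC4 (0.15), SCC2 (-0.07) and CTF18 (0.07). The median changes of these 3 lists were -0.05, 0.01 and 0.04. At an unadjusted p under 0.05, 10.9% of the named genes were higher and 10.1% lower.

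**Figure D4:**
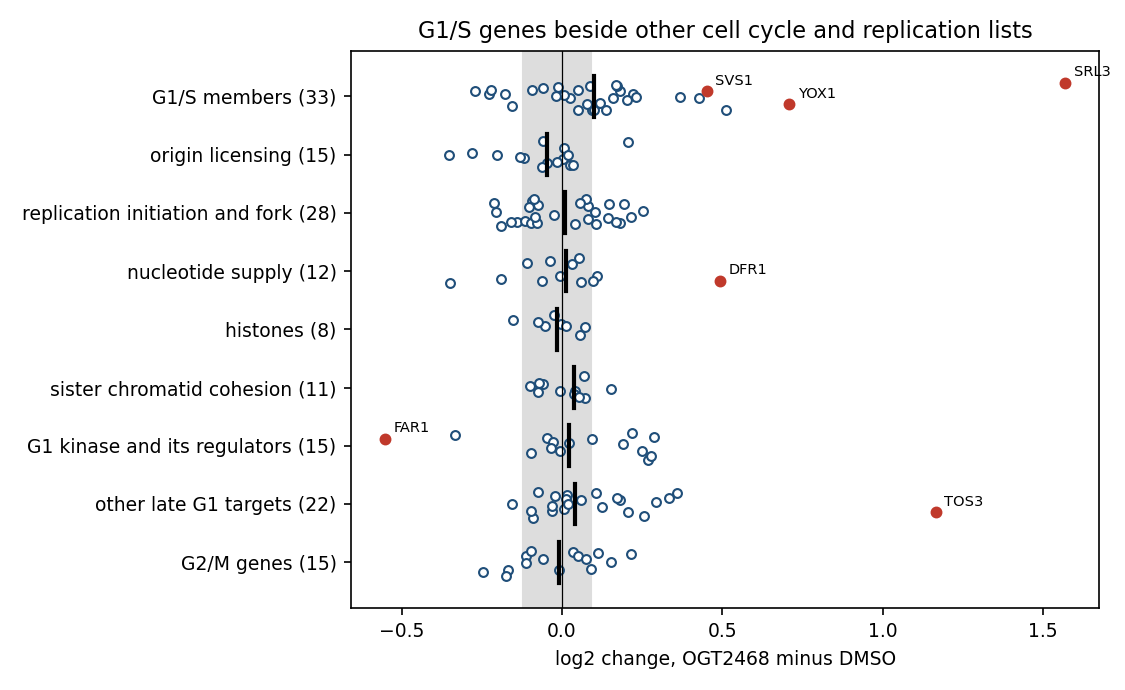
Log2 change of each measured gene in the G1/S set and in 8 further lists of the cell cycle and replication (number measured in brackets), with the list median as a black bar and the range between the quartiles of all named genes in grey; red points have a limma adjusted p under 0.05 and are named. The called genes outside the G1/S set are TOS3, DFR1 and FAR1, and the list medians lie between -0.05 and 0.10.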

How the data were processed

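Biotin-labelled total RNA of 6 yeast cultures was measured on Affymetrix arrays, per the labels' protocols. The deposited values are linear intensities, 1 for each probe set on each array. The submitters' processing notes name GCRMA, but the deposited intensities are not on the log2 scale that it returns, and the background correction and summary method are not given in the sources used here.

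Names came from the platform annotation, matched by gene ID to 6477 genes of R64. Of 10928 probe sets, 5498 matched 1 S. cerevisiae gene (5449 genes), 213 were controls and 3470 were unnamed. The other 1747 were annotated but matched no single S. cerevisiae gene, and they are called other-species here. Any of these annotated to several genes were left out of the background. Other-species and control probe sets were left out of the test. The unnamed ones, whose species the annotation does not give, stayed in. Quantile normalization of the 8968 tested probe sets put the arrays on a common distribution, 16 was added and log2 was taken, a scale that understates the change of dim genes. Groups were compared with limma 3.58.1 (lmFit, eBayes) under R 4.3.3, with no covariate and Benjamini-Hochberg adjustment at 0.05. The limma comparison was also run on simulated log2 values.

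The members, lists and tests were chosen with earlier results of these data known. All members were named, with values on each array for those that passed, those with groups apart and a change of at least 0.4, the G1 cyclins and the subunits of SBF and MBF, and CDC21 and CLB6 were added to these after their values were seen. From each further list the genes that passed were named, or else the 3 with the lowest p, and some listed genes are not reported here. Alternatives were 4 other scalings, 2 pseudocounts, 2 choices of probe sets, the replicate number as a block and the removal of each array.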

Additional observations from a re-analysis of the deposited data

How the results depend on the processing

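The count of members called higher was 3 as reported, 1 with no scaling, with control scaling or with the replicate block, 2 with upper quartile scaling, median scaling or a pseudocount of 1, 5 with a pseudocount of 64, 7 with named probe sets alone or a filter on dim ones, and 2 to 3 without 1 array, while the count lower was 0 throughout. For all probe sets, 164 higher and 68 lower became 22 and 44 with no scaling, 40 higher with control scaling, 292 and 187 with a pseudocount of 64, 326 and 203 with named probe sets alone, 352 and 228 with the filter, 27 and 14 with the replicate block, and 61 to 91 and 28 to 40 without 1 array. Calls were 77 lower with control scaling. Among the further lists, 2 higher and 1 lower became 0 higher with no scaling, 1 higher with control scaling, 6 and 2 with a pseudocount of 64, 7 and 3 with named probe sets alone, 7 and 4 with the filter, 0 and 0 with the replicate block, 0 lower with median scaling or a pseudocount of 1, and 1 to 2 higher and 0 lower without 1 array. Fewer probe sets tested under the named and filtered settings is part of their construction, and for the other settings the cause was not tested.

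The numbers in the titles do not pair the cultures by the labels, and same-numbered arrays had correlations of deviations of 0.194, 0.140 and 0.0592 over the named genes. Every array correlated best with its own number in the other group, a hint from the data and not from the design. With the replicate block the calls of YOX1 (adjusted p = 0.0748), SVS1 (0.125), TOS3 (0.0674), DFR1 (0.105) and FAR1 (0.0835) were lost, at the same changes, and SRL3 alone of the 33 passed.

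Relative to the median of all named genes, RAD27 went from 0.00 to -0.015 with no scaling or control scaling, -0.0088 with upper quartile scaling and -0.0083 with median scaling. Without 1 array the relative changes spanned -0.057 to 0.12 for RAD27, -0.13 to 0.22 for CLB6, -0.10 to 0.025 for POL1, -0.032 to 0.023 for RFA1 and -0.096 to 0.0093 for SCC2, and the cause of these sign changes was not tested. The other genes named in the text, mating type markers aside, kept their sign relative to this median in all alternatives. Each gene of the 33 has 1 probe set, so the use of another probe set was not run. With 3 arrays per group small changes cannot be resolved.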

Other observations

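Genes that act later in the cycle were read in the same way. Of 8 measured histone genes, which are transcribed in S phase, 0 passed in limma, with 0 also at an unadjusted p under 0.05. HTB2, a histone H2B gene, had a change of -0.15, HHF1, a histone H4 gene, had -0.07 and HHO1, the linker histone gene, had 0.07, and the median of the list was -0.01. Of 15 measured G2/M genes 0 passed, with 1 higher and 2 lower at an unadjusted p under 0.05. For all named genes these shares were 10.9% higher and 10.1% lower. FKH2, a forkhead factor of the G2/M wave, had a change of -0.25, IQG1, a scaffold of the cytokinetic ring, had 0.21 and CDC20, an activator of the anaphase-promoting complex, had -0.17. The 95% intervals of the G2/M genes lay between -0.49 and 0.38, and those of the histone genes between -0.31 and 0.28.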
